A study of Homo sapiens with 12 samples.

Results

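The pregnancy-specific glycoprotein (PSG) genes are a family of 10 protein-coding genes, PSG1 to PSG9 and PSG11, in 1 cluster on the long arm of chromosome 19. They were taken by symbol from RefSeq and looked up, with 300 kb to each side of the cluster, in maps of nucleolus-associated domains (NADs), the chromosomal DNA that is recovered with purified nucleoli. All 10 members were found among the 19821 RefSeq protein-coding genes placed on chromosomes 1 to 22 and X, of which 1410 lie on chromosome 19. The maps came from the untreated H9 line, an established line of human embryonic stem cells, in 2 states: naive cells, grown in RSeT medium, and primed cells, grown in mTeSR medium. For each state 3 nucleolar DNA libraries and 3 whole-cell DNA libraries, 12 in all, stood behind 1 list of NAD regions. Both states are of the same line, and the state rests on the culture medium in the labels. Region lists hold no expression values, so the cell type could not be set against marker genes. A list has no score and no value for a single library. Every share below is therefore a description of 1 list, with no replicate, no error and no test between the states, and the read depth is unknown. A listed region does not tell in how many of the cells the DNA lay at the nucleolus.

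PSG proteins are secreted members of the immunoglobulin superfamily and belong to the same family as the CEACAM cell adhesion molecules. The syncytiotrophoblast of the placenta makes them in large amounts during pregnancy, and they act on maternal immune cells, on platelets and on vessels. PSG1, also known as CD66f, and PSG9 are known to activate latent TGF-beta, a cytokine that restrains immune responses. Embryonic stem cells are not a placental cell type, and NADs are in general rich in genes that the cell does not transcribe.

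In primed cells the whole PSG cluster lay inside a single NAD, and in naive cells it was covered by a row of separate regions that left short gaps, most of them 10 kb wide. The cluster, from the lower limit of PSG3 to the upper limit of PSG9 (chr19:42721642-43269530, hg38, 547.9 kb), was 100% in the primed list and 78.2% in the naive list. Over chromosome 19 the shares were 97.3% and 51.6%. The primed coverage of the cluster thus matched a chromosome that was nearly all in primed NADs, whereas the naive share was 1.51 times that of the chromosome. All region limits here lie on a grid of 10 kb bins, so the naive list covered 43 of the 55 bins that hold the cluster.

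**Figure D1:**
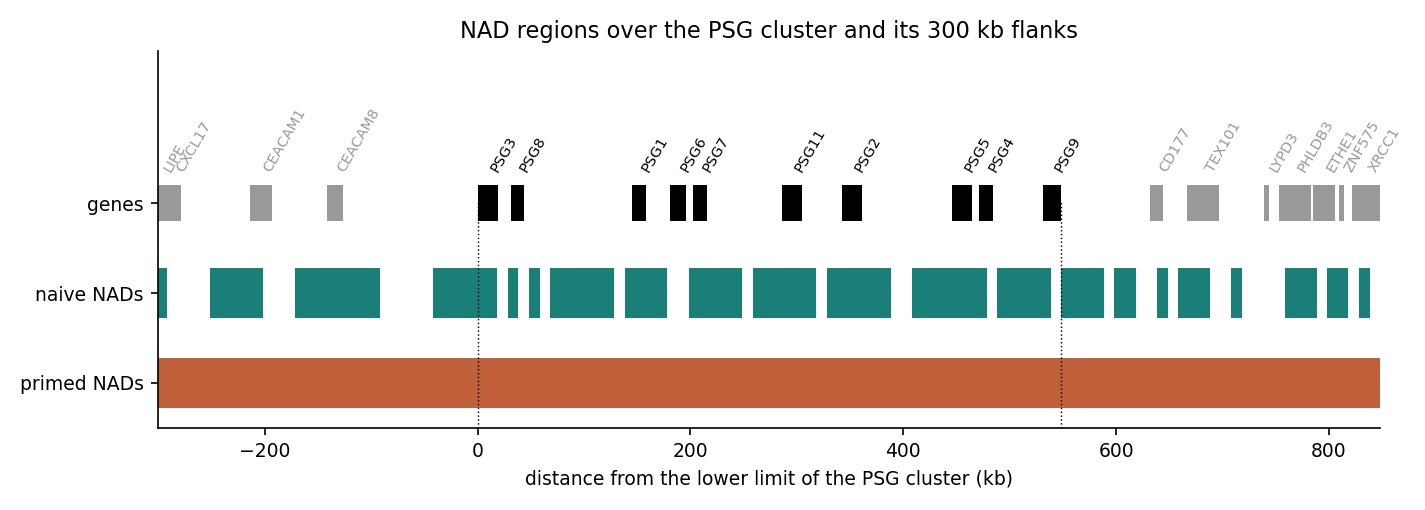
NAD regions over the PSG cluster and its 300 kb flanks. The x axis is the distance from the lower limit of the cluster in kb, black boxes are the 10 members, grey boxes are protein-coding neighbours, dotted lines mark the cluster limits, and green and orange bars are naive and primed NADs. The primed bar runs through without a gap, and 10 naive gaps of 10 or 20 kb touch the cluster.

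Among the members 5, namely PSG1, PSG7, PSG11, PSG2 and PSG5, lay wholly in naive NADs, 4 in part and PSG6 not at all. PSG11, PSG2 and PSG5 follow each other along the chromosome, and PSG1 and PSG7 stand on either side of PSG6. PSG11 (chr19:43007656-43026469, 18.8 kb long) had 100% of its body in both lists, inside a naive region of 60 kb. PSG2 (chr19:43064209-43082701, 18.5 kb) was likewise at 100% in both, inside another naive region of 60 kb. PSG5 (chr19:43167743-43186536, 18.8 kb) was at 100% in both and shared a naive region of 70 kb, the longest that touched the cluster, with part of PSG4. PSG1 (chr19:42866464-42879713, 13.3 kb) was at 100% in both lists inside a naive region of 40 kb. PSG7 (chr19:42924132-42937207, 13.1 kb) was at 100% in both inside a naive region of 50 kb. For these 5 genes the naive and primed lists did not differ at the resolution of the grid.

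PSG6 was the member that differed most between the lists. Proteins of PSG1, PSG6 and PSG11 are known to induce cytokine release from monocytes. The body of PSG6 (chr19:42902086-42917894, 15.8 kb) was 100% in the primed list and 0% in the naive list, and it filled most of a naive gap of 20 kb (chr19:42900001-42920000). PSG7, wholly in a naive NAD, begins 6.24 kb above it. The contrast between these neighbours rests on 2 bins.

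The members covered in part lay near the 2 ends of the cluster. PSG3 (chr19:42721642-42740481, 18.8 kb), the first gene of the cluster, had 97.4% of its body in a naive region of 60 kb, and what was left over was a stretch of under 1 kb. PSG8 (chr19:42752686-42765678, 13.0 kb), the next gene, was at 56.3%, or 7.32 kb, within a naive region of a single bin. PSG4 (chr19:43192702-43205638, 12.9 kb) was at 56.4%, or 7.30 kb. PSG9 (chr19:43253282-43269530, 16.2 kb), the last gene, was at 41.4%, or 6.72 kb. All 4 were at 100% in the primed list. In each of them the uncovered stretch was at the end with the higher coordinate.

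**Figure D2:**
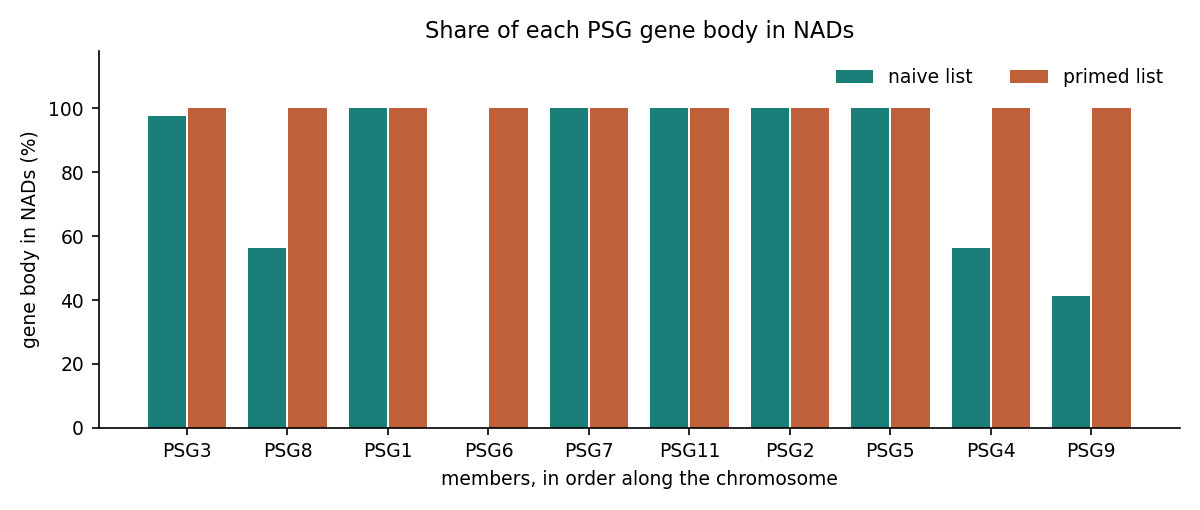
Share of each PSG gene body in NADs, in percent of the body length on the y axis, with the 10 members in chromosomal order on the x axis. Green bars are the naive list and orange bars the primed list, 1 value each and no error. Primed bars are all at 100%, and naive bars range from 0% for PSG6 to 100% for PSG1, PSG7, PSG11, PSG2 and PSG5.

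Counted as genes that touch a NAD by at least 1 base, 10 of 10 members were in the primed list and 9 of 10 in the naive list. The background was high: 81.8% of all protein-coding genes and 99.9% of those on chromosome 19 touched a primed NAD, and 76.8% and 78.4% touched a naive NAD. Among the 187 other coding genes of chromosome 19 with bodies as long as those of the members (12.9 to 18.8 kb), 79.1% touched a naive NAD. In all 9 members touched NADs of both states, against 65.2% of all coding genes and 78.3% of those on chromosome 19. These counts by touch were close to the background of the chromosome. The share of the body that was covered stood further from it. At least 50% of the body lay in naive NADs for 8 of 10 members, against 34.7% of all coding genes, 47.0% of those on chromosome 19 and 44.4% of those of like length there. The whole body did so for 5 of 10 members, against 20.1% on chromosome 19. The median naive share of the body was 98.7% for the members and 45.5% for coding genes of chromosome 19. The 10 genes are neighbours in 1 stretch and share naive regions, so they are not 10 separate observations.

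The naive regions of the cluster were long for that list. The cluster was touched by 10 naive regions, with a median length of 55 kb and a range of 10 to 70 kb, and 8 of them were at least 40 kb long. Of all naive regions 10.3% were that long, and of those on chromosome 19 16.3%, with medians of 10 and 15 kb. In the flanks alone 3 of 11 naive regions (27.3%) were that long, with a median of 20 kb. The longest of these, 80 kb, was longer than any that touched the cluster. The 10 gaps that touched the cluster were short, 8 of 10 kb and 2 of 20 kb. Long regions with short gaps restate the high naive share of the cluster and are not a separate result. Of these, 5 cut into a member (PSG3, PSG8, PSG6, PSG4 and PSG9). The others held the upper end of the pseudogene PSG10P, the CEACAM pseudogenes CEACAMP6 and CEACAMP8, or no RefSeq gene. Naive coverage was about the same in the genes and in the DNA between them: the bodies, 29.1% of the cluster, were 76.7% covered and the spacers 78.8%.

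Of the 10 other RefSeq genes within the cluster, all lay in the primed NAD and 8 touched a naive NAD. The naive list covered 78.2% of the cluster itself. All 10 are pseudogenes or long non-coding RNA genes, for which no background share was computed. PSG10P, a transcribed pseudogene of the family between PSG8 and PSG1, had 69.5% of its body in naive NADs. The long non-coding RNA genes PSG8-AS1, PSG11-AS1 and LOC284344 were each at 100% in both lists. Of the 5 CEACAM pseudogenes, CEACAMP7, CEACAMP9 and CEACAMP10 were wholly in naive NADs and CEACAMP6 and CEACAMP8 outside them. LOC100421300, a small pseudogene inside PSG5, was at 100%.

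Promoter sequence was given for 3 of the 10 members by RefSeq (GRCh38.p14), and the naive list placed these 3 promoters differently. PSG3 and PSG4 have their starts in naive gaps, with 0% of the 250 bases before the start in naive NADs, whereas PSG5 had 100%. All 3 were at 100% in the primed list. They are shown to let the copies be compared. Each runs 5′ to 3′ on the strand of the gene and ends at the base before its start. Capitals mark a GC box (CCGCCC, or GGGCGG on the other strand) or a CACCC box (CCACCC, or GGGTGG), motifs bound by Sp and KLF factors.
PSG3 (chr19:42740482-42740731, minus strand): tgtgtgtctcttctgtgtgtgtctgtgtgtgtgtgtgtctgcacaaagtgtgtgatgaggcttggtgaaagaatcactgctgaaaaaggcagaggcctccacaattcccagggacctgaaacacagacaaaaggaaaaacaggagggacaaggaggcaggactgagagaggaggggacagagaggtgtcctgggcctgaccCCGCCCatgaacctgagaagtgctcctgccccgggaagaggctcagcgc
PSG4 (chr19:43205639-43205888, minus strand): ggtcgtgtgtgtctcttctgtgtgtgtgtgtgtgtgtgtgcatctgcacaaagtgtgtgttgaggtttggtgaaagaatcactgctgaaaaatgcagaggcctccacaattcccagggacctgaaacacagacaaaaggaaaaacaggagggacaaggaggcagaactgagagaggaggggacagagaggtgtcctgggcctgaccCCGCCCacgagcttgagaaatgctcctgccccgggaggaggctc
PSG5 (chr19:43186537-43186786, minus strand): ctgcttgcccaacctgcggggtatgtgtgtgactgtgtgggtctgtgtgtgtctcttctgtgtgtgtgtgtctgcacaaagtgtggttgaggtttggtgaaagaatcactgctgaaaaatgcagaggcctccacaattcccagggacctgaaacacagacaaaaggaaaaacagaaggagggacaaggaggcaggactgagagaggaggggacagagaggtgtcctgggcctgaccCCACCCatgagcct
The sequences were close copies. Over all alignment columns, with gap columns counted as not identical, PSG3 and PSG4 were 95.1% identical (233 of 245 columns, no gap, 12 mismatches). PSG3 and PSG5 were 90.8% identical (207 of 228, 14 gap columns, 7 mismatches). PSG4 and PSG5 were 89.3% identical (209 of 234, 17 gap columns, 8 mismatches). The lower identity of the pairs with PSG5 thus came from gaps, and those pairs had fewer mismatches. PSG3 and PSG4 held 1 GC box each and no CACCC box, and PSG5 held 1 CACCC box and no GC box. In the printed sequences these boxes follow the same bases and differ by 1 base. Their distance to the gene start is not the same: the PSG5 sequence ends soon after its box, and those of PSG3 and PSG4 run further. Of the 35116 promoters of the same length in the RefSeq table, 42.6% held a GC box and 31.3% a CACCC box, so neither match is rare. The 3 promoters were poor in CpG, with 3 (PSG3), 4 (PSG4) and 1 (PSG5) against a median of 11, and their GC content of 53.6 to 55.2% compared with a median of 58%. The 3 sequences do not span the same aligned stretch, so their CpG counts cannot be compared copy by copy. Each promoter carried a run of TG repeats, 6 units long in PSG5, 7 in PSG3 and 11 in PSG4. How reads that match several copies were placed is not given in the sources used here, so the naive bins that separate one PSG copy from another are uncertain, and the part of read placement in them was not tested.

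The flanks differed from the cluster in the naive list alone. The naive share was 60% in the 300 kb below the cluster, 56.7% in the 300 kb above it and 58.3% in both together, 19.9 percentage points below the cluster. The primed list covered 100% of both flanks. The flanks hold 11 protein-coding genes, wholly or in part. All 11 were wholly in the primed NAD, 10 touched a naive NAD, 7 had at least 50% of the body there, and their median naive share was 59.9%.

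Below the cluster, the adhesion receptor gene CEACAM1 had 59.9% of its body in naive NADs and the granulocyte marker gene CEACAM8 (CD66b) 100%. LIPE, which encodes hormone-sensitive lipase, was at 67.2% and the mucosal chemokine gene CXCL17 at 11.7%. Above it, the neutrophil surface protein gene CD177 was at 49.1% and TEX101, a germ-cell surface protein gene, at 71.3%. LYPD3, which encodes a membrane-anchored protein of the Ly6 family, was the neighbour with 0%. Farther up were PHLDB3 with 83.5%, the mitochondrial sulfur dioxygenase gene ETHE1 with 51.2%, the zinc finger gene ZNF575 with 100% and the DNA repair gene XRCC1 with 48.2%.

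**Figure D3:**
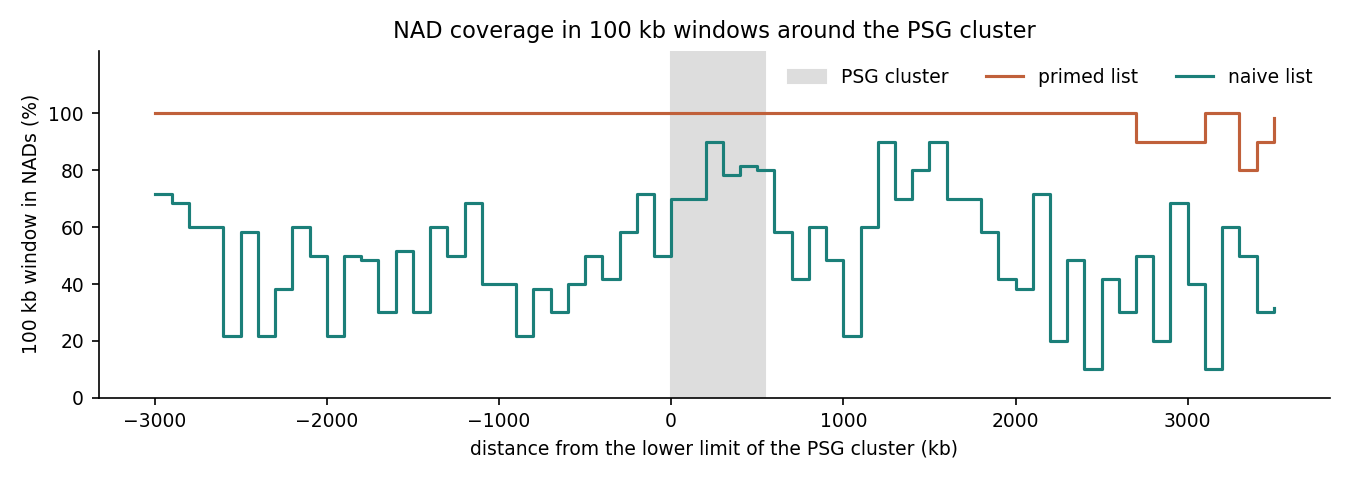
Share of 100 kb windows in NADs, in percent on the y axis, against the distance from the lower limit of the PSG cluster in kb on the x axis. Green is the naive list, orange the primed list and the grey band the cluster. The naive line lies at 70 to 90% in the windows that start within the cluster, and the primed line stays at 100% through it and over both flanks.

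The primed NAD around the cluster was 6.20 Mb long (chr19:39230001-45430000), the 11th longest of the primed list, and held 179 protein-coding genes. It reached 3.49 Mb below and 2.16 Mb above the cluster. Inside it the naive list covered 48.9% of the sequence outside the PSG cluster, against 78.2% within the cluster. Chromosome 19 was then laid out in windows of 550 kb, one of them placed on the cluster. That window was 78.2% in naive NADs, and the other 99 windows had a median of 50.9% and ranged from 18.2 to 89.1%. Of these, 8 were at or above the PSG window. They held 36 coding genes in all, 33 of them zinc finger genes with a ZNF symbol, against 17.7% of the 1410 coding genes of chromosome 19. The chromosome holds 250 ZNF genes, so most of them lay outside these windows. The class was singled out after the values were seen, and no link to naive coverage was tested. The 33 ZNF genes lay in 5 of the 8 windows, 17 of them in 1 window. Of the other windows, 1 held 1 coding gene, TSHZ3, named after its values were seen, and the rest held 0. The window with 17 ZNF genes (chr19:43820001-44370000), at 80% naive coverage, lies less than 1 Mb above the PSG cluster. High naive coverage was therefore found at the PSG cluster and also elsewhere on the chromosome.

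**Figure D4:**
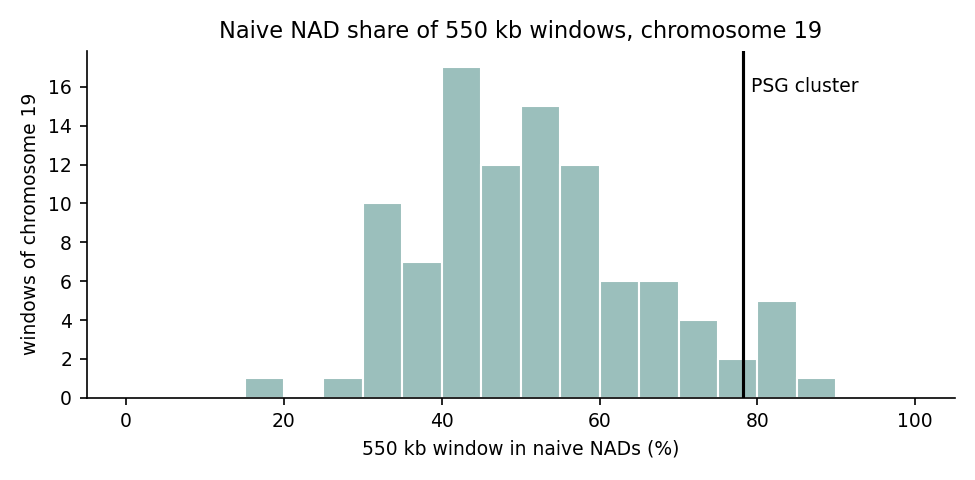
Naive NAD share of windows of 550 kb on chromosome 19. The x axis is the share of the window in naive NADs in percent and the y axis the number of windows. Bars are the 99 other windows, and the line is the window of the PSG cluster at 78.2%, with 8 of the others at or above it.

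The CEACAM genes, the nearest relatives, were next compared. All 12 on the list touched NADs of both states and all 12 were wholly in the primed list, as the PSG genes were. Their naive shares ranged from 2.37 to 100%, with a median of 54.0% against 98.7% for the PSG genes, which ranged from 0 to 100%. Of the 12 CEACAM genes, 6 had at least 50% of the body in naive NADs, close to the 47.0% of coding genes on chromosome 19. The CEACAM genes with the largest differences between the lists were CEACAM5, which encodes carcinoembryonic antigen, with 2.37% in the naive list, CEACAM16, a gene of the inner ear, with 6.21%, CEACAM3, a phagocyte receptor gene, with 22.8%, and CEACAM19 with 45.9%. Since all 12 were at 100% in the primed list, the genes with the largest differences are those with the lowest naive shares. At the other end 2 of the 12, CEACAM7 and CEACAM8, named after their values were seen, were wholly in naive NADs. The stretch from CEACAM21 to CEACAM3 (chr19:41549518-41811554, 262 kb) was 46.0% in naive NADs and 100% in the primed list.

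Other genes with placental products varied in their naive coverage, and no difference from the PSG genes was tested. On chromosome 19 the placental clusters examined were wholly in primed NADs. The cluster of CGB genes, which encode the beta subunit of chorionic gonadotropin, with LHB, which encodes that of luteinizing hormone (chr19:49015980-49057749, 41.8 kb), was 66.4% in naive NADs. CGB1, CGB2, CGB3 and CGB7 were wholly in naive NADs, and LHB, CGB5 and CGB8 outside them, so that the median naive share of the 7 genes was 100%, next to 98.7% for the PSG genes. The stretch of the placental galectin genes (chr19:39602524-39709444, 106.9 kb) was at 56.1%, with LGALS16 at 100% and LGALS13 and LGALS14 at 0%. The chromosome 19 microRNA cluster (chr19:53666679-53762430, 95.8 kb) was at 20.9%.

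Of the 46 genes of the microRNA cluster 7 were in naive NADs, all within the 20 kb of the cluster that the naive list covered. These 7, named after their values were seen, were MIR518A1, MIR518D, MIR516B1, MIR518A2, MIR517C, MIR520H and MIR521-1, which follow one another. They are not 7 separate observations, and no share over all microRNA genes was computed. MIR1283-1, MIR1283-2, MIR1323 and MIR498 are the first by symbol of the 39 in primed NADs alone, which all differed by 100 points. On chromosome 17, the cluster of growth hormone and placental lactogen genes (chr17:63872012-63918839, 46.8 kb) was at 0% in the naive list and 18.9% in the primed list. There GH1 lay wholly and CSHL1 to 76.2% in primed NADs, and CSH1, CSH2 and GH2 in neither list. Genes of these clusters are far shorter than a bin, so most lie wholly in or wholly out of a list.

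Of 32 other genes of placental function, 29 of them outside chromosome 19, 19 touched a naive and 23 a primed NAD, 16 of them both, and 6 touched neither. Of all coding genes 76.8% touched a naive NAD, 81.8% a primed NAD and 65.2% both, and 1302 of 19821 touched neither. The 32 genes were shorter, with a median length of 9.59 kb against 24.5 kb, and no difference was tested. The median naive share was 33.0% and the median primed share 93.1%, against 35.6% and 75.8% for all coding genes. The largest difference, 100 points, was shared by 7 genes, and the first 4 by symbol are described. The trophoblast homeobox gene DLX3, the cytokine subunit gene EBI3 and the endogenous retroviral envelope gene ERVV-2 were wholly in primed NADs and at 0% in naive ones. ERVW-1, which encodes the fusion protein syncytin-1, was the reverse, at 100% in the naive list and 0% in the primed one. The 3 genes in naive NADs alone, named after their values were seen, were ERVW-1, KISS1, which encodes the kisspeptin precursor, and CGA, the gene of the alpha subunit shared by chorionic gonadotropin and pituitary hormones, with 46.9% of its body. Such genes were not rare: 2301 of all 19821 coding genes touched a naive NAD alone, a share close to 3 of 32.

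**Figure D5:**
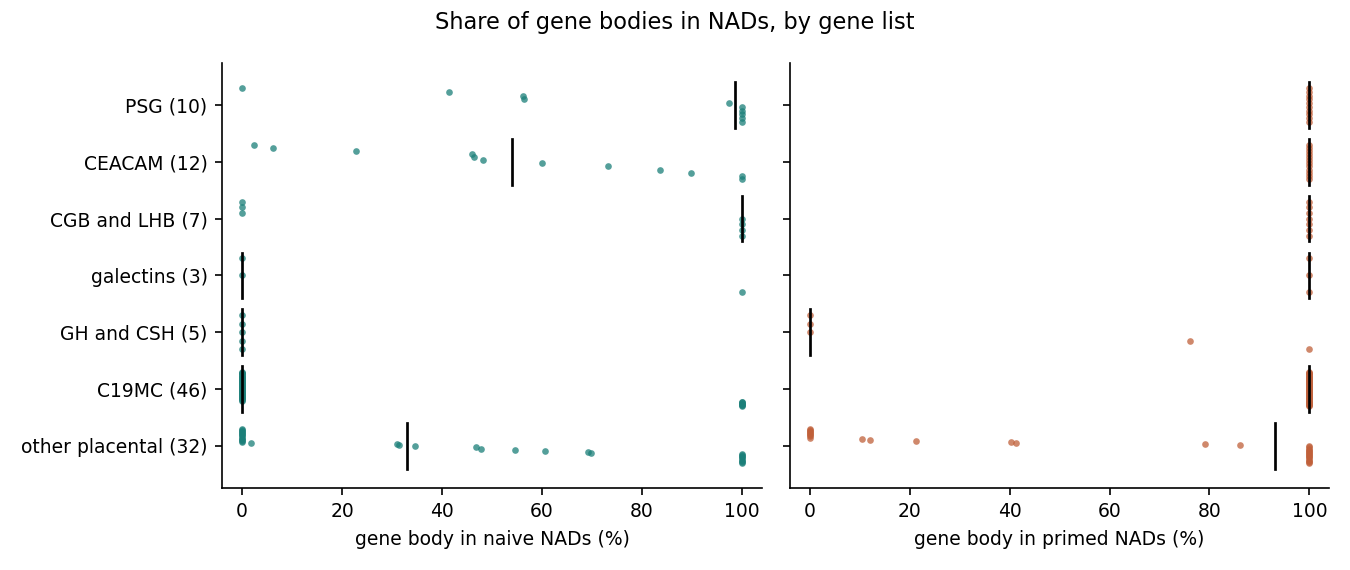
Share of each gene body in naive NADs (left) and primed NADs (right), in percent on the x axes, for the PSG genes and 6 comparison lists with their sizes in brackets. A point is a gene and a black line the median of its list. The naive median is 98.7% for the PSG genes and 54.0% for the CEACAM genes, and both lists are at 100% in the primed panel.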

How the data were processed

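NAD regions of H9 cells were analysed from the 2 lists that the authors deposited, 1 for each state, as region limits on hg38, without a score. Per the submitters' processing notes, the tools included BWA, SAMtools 1.10 and SICER, with no role stated for any of them. Window, gap and threshold settings, and the way in which 3 replicates became 1 list, were not given in the sources used here. Both act on which bins are listed, and their part in the differences was not tested.

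The members and comparison lists were chosen with earlier results of these data known. Genes came from a RefSeq table (GRCh38.p14), and 679 genes on scaffolds were left out. Covered bases were counted per gene body, span and 10 kb bin in Python 3.11.15 with numpy 2.4.6 and pandas 2.3.3, and the counting was tested on simulated data. The share of chromosome 19 leaves out 1 stretch of 2.33 Mb, over the limit of 500 kb, without regions or genes. Promoters were aligned with Biopython 1.88 (match 2, mismatch -1, gap opening -2, extension -0.5, free ends). No test was run. Alternatives changed region length, gaps, overlap and flanks. Named genes were all members, all other genes of the cluster, coding genes of the flanks, all members of lists of up to 7 genes, and up to 4 genes per longer list with the largest difference between the lists of regions, ties taken by symbol.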

Additional observations from a re-analysis of the deposited data

How the results depend on the processing

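Of 124 alternative values, over 35 measures, 30 moved. None changed sign, but counts and shares cannot do so, and naive minus primed cannot exceed 0 where the primed share is 100%. Shares were treated as moved when they changed by over 13.2 percentage points, the wider side of the exact Clopper-Pearson 95% interval over the 55 bins, and counts when they changed by over 1.5 times. Neighbouring bins are not independent, so this limit is a convention and no error of the shares. Gap closing mattered most. With gaps of 10 kb closed, naive NADs covered 90.1% of the PSG bodies, 92.7% of the cluster and 63.0% of chromosome 19. Naive minus primed was then -7.30 points, and cluster minus flanks was 26.0 points, against 19.9 in the main setting. With gaps of up to 50 kb closed, naive NADs covered 100% of the bodies and of the cluster, and 92.1% of chromosome 19. Naive minus primed and cluster minus flanks were then 0, and no member was in 1 state only. With regions of at least 20 kb alone, naive NADs covered 74.5% of the cluster and 40.2% of chromosome 19, and cluster minus flanks was 21.2 points. PSG6 stayed at 0% with gaps of 10 kb closed and with regions of at least 20 kb alone, and PSG8 fell to 0% with the latter. Members in 1 state only then numbered 2, as they did when 50% of the body was required. When the whole body was required, 5 members were in naive NADs, 5 in both states and 5 in 1 state only. By promoter window, known for 3 members, 1 was in naive NADs, 3 in primed NADs, 1 in both and 2 in 1 state only. These counts are out of 3 members and not 10, and all of them are among the values that moved. For primed NADs the change is from 10 of 10 to 3 of 3, so it reflects only the number of known promoters. The excess of the cluster over its flanks was 18.4 points with flanks of 100 kb and 25.1 points with flanks of 1 Mb. No paired analysis was possible because a list gives no value for a replicate, and for the same reason no replicate could be left out. Read depth is unknown.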

Other observations

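The ends of the PSG genes were not covered alike in the naive list. The lower end, by coordinate, lay in a naive NAD for 9 of 10 members and the upper end for 5 of 10. In 4 members (PSG3, PSG8, PSG4 and PSG9) the uncovered end was always the upper one: they had the lower end alone in a naive NAD, and none the upper end alone. The gene table gives no strand. The promoter table does so for PSG3, PSG4 and PSG5, all on the minus strand, where the upper end is the 5′ end. Among 1400 other coding genes of chromosome 19, 19.1% had the lower end alone in a naive NAD and 21.7% the upper end alone. Among the 187 of these with bodies as long as those of the PSG genes, both shares were 24.6%. For the 1182 of the 1400 with a known strand, the 3′ end alone was in a naive NAD for 18.7% and the 5′ end alone for 22.1%. This comparison was chosen after the values were seen and was not tested. In PSG3 the uncovered stretch is under 1 kb, so the call for its upper end rests on few bases. With gaps of 10 kb closed, 9 upper and 9 lower ends were covered.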
